A study of Bos taurus with 6 samples.

Results

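A set of 6 genes of blastocyst cavity formation was followed in single bovine morulae: ATP1B1, ATP1B2 and ATP1B3, which encode beta subunits of the sodium pump, and the aquaporin genes AQP3, AQP7 and AQP11. They were chosen by gene symbol, and all 6 had a row of their own in each of 6 libraries, among 13295 symbols of which this is true. The study set 3 control embryos against 3 embryos in which MAT2A, the enzyme that makes the methyl donor S-adenosylmethionine, was inhibited (treated embryos). All embryos came from in vitro fertilization and grew in a semi-defined medium with serum albumin under 5% oxygen. At 72 h after insemination, on day 3, embryos of 8 to 16 cells received either 0.1% DMSO, the solvent, or 20 µM FIDAS-5, the inhibitor, until day 6 (144 h). A DMSO content is stated for the controls alone. No genetic change is described for either group, and each library is 1 whole embryo, so fewer cells of a type and less RNA per cell cannot be told apart. Whether the embryos grew in separate cultures is not stated, and p-values reflect only how far these single embryos differ, which may be technical.

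The sodium pump of the outer cells drives the filling of the blastocyst cavity. Its alpha subunit moves sodium out of the cell, and its beta subunit is needed to fold the alpha subunit and bring it to the membrane. Sodium gathers between the inner faces of the cells, water follows it through aquaporins, and tight junctions keep the fluid inside. A morula is the stage just before this cavity opens.

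Recovered depth was 46500000 to 59900000 fragments per library. The pluripotency factor POU5F1 was at 255 to 431 FPKM, a level per transcript length and sequencing depth (fragments per kilobase of transcript, scaled to sequencing depth). The trophectoderm regulator TFAP2C was at 76.1 to 104 FPKM, while CDX2 stayed at 2.77 FPKM or less. Y-linked transcripts were found in 2 of the 6 libraries, MAT2A-inhibited 2 and 3. The summed level of 12 cumulus and granulosa genes ran from 60.6 to 129 FPKM without and from 46.1 to 83.0 FPKM with the inhibitor, with PTX3 at 0 throughout. For 6 sperm genes it was 3.68 to 4.79 against 5.24 to 11.5 FPKM, with ODF1 at 0. For 5 blood genes it was 66.5 to 134 against 81.9 to 111 FPKM, with HBM at 0. Of the cumulus and granulosa sum, SERPINE2 alone gave 53.9 to 122 against 41.0 to 80.2 FPKM. Of the blood sum, HBA alone gave 63.1 to 132 against 80.1 to 110 FPKM. The part of these gene lists in the results below was not tested.

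One beta subunit transcript far outweighed the others. ATP1B3 (bosTau8 chromosome 1, 128050718 to 128085713), the beta 3 subunit, was at 564, 539 and 496 FPKM in control embryos 1 to 3, against 429, 512 and 444 FPKM in treated embryos 1 to 3. The highest treated embryo lay above the lowest control, so the groups overlap. Among 13185 genes ranked by FPKM in each library, ATP1B3 stood between place 311 and place 381. Its level was also one of the steadiest: the SD within groups was 0.12 on the log2(FPKM + 1) scale, and 2.16% of the 7319 tested genes had a smaller one. The median SD was 0.40 over all tested genes and 0.29 over the 1150 with a mean of 100 FPKM or more.

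ATP1B1 (chromosome 16, 37568416 to 37593958), the beta 1 subunit, was low in every embryo. It was at 2.64, 2.76 and 1.82 FPKM in the control embryos against 1.65, 1.80 and 2.65 FPKM in the treated ones. The ATP1B3 level exceeded it by a factor of 168 to 285 in the same embryo. ATP1B3 made up 98.9% to 99.6% of the summed FPKM of the 3 beta subunits, and ATP1B1 0.347% to 0.592%. The mean share of ATP1B3 was 99.5% ± 0.110 without and 99.3% ± 0.366 with the inhibitor (SD, n = 3 each).

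ATP1B2 (chromosome 19, 27974167 to 27978470), the beta 2 subunit best known from nervous tissue, was below 1 FPKM in 5 of 6 embryos. It was at 0.152, 0.411 and 0 FPKM in the control embryos against 0.184, 4.04 and 0 FPKM in the treated ones. In the embryo at 4.04 FPKM, MAT2A-inhibited 2, the deposited locus runs on to position 27980259. In each of the other 5 libraries the ATP1B2 locus ends at 27978470, and a separate unannotated locus follows 242 to 760 bases further on and ends at 27980252 or 27980253. That separate locus was at 10.2, 6.45 and 15.7 FPKM in controls 1 to 3 and at 10.7 and 10.01 FPKM in MAT2A-inhibited 1 and 3. MAT2A-inhibited 2 has no separate row there. The 5 libraries with the short locus hold ATP1B2 at 0.411 FPKM or less.

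**Figure D1:**
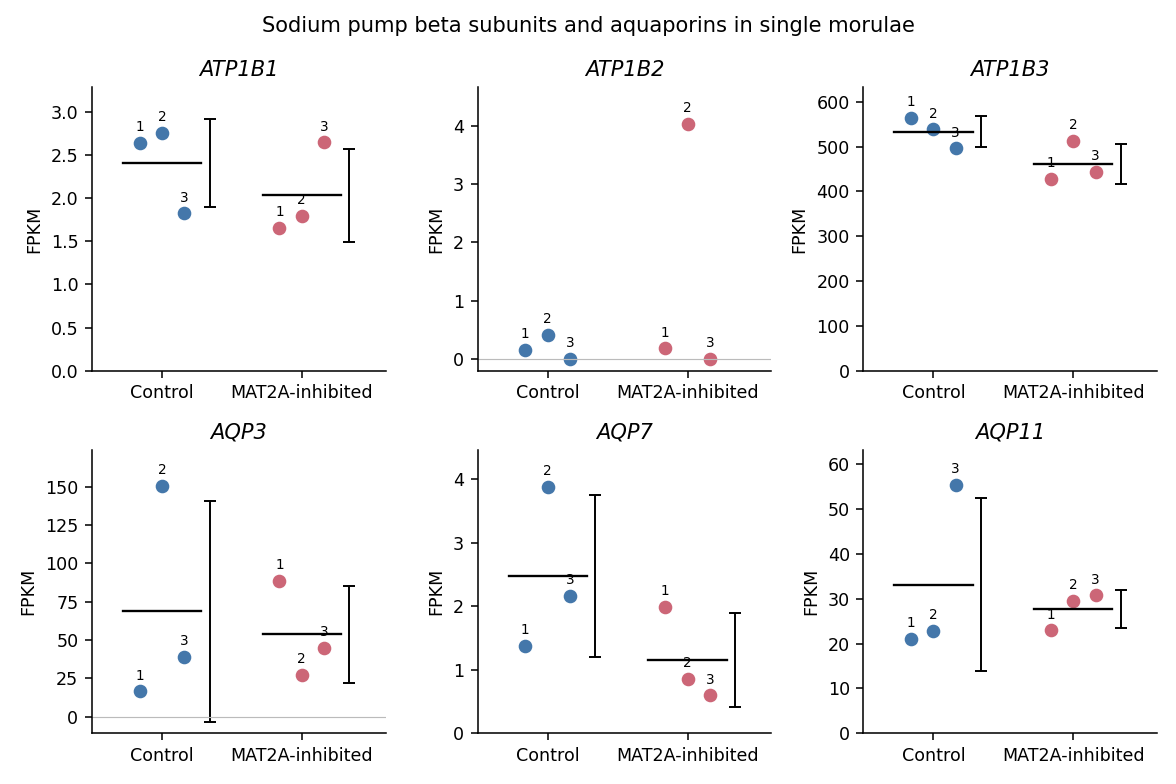
FPKM (vertical axes, linear) of the 6 genes in 3 control and 3 MAT2A-inhibited morulae, with the replicate number beside each point; horizontal lines are group means and bars the SD (n = 3), left out for ATP1B2, which holds values listed at 0. ATP1B3 lies between 429 and 564 FPKM in all embryos, and for AQP3, AQP11 and ATP1B2 a single embryo stands well above the rest of its group.

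Of the 3 aquaporins, AQP7 was the lowest in every embryo, and AQP3 spread most between embryos of a group. AQP3 (chromosome 8, 76525366 to 76531321) encodes a channel for water and glycerol. It was at 16.6, 151 and 38.9 FPKM in the control embryos against 88.7, 27.4 and 45.1 FPKM in the treated ones. Control 1 was the lowest and control 2 the highest of all 6 embryos, a 9.09-fold range inside 1 group. The SD within groups was 1.26 on the log2(FPKM + 1) scale, above that of 96.6% of tested genes.

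The value of 151 FPKM lies outside the confidence bounds that the authors deposited with it, 52.4 to 61.1 FPKM. It is 2.47 times the upper bound. In that library 0.626% of annotated rows at 1 FPKM or more exceed their upper bound by more than a factor of 2, and 15.7% exceed it at all. In 4 of the other 5 libraries AQP3 also lies above its upper bound, by a factor of 1.03 to 1.09. The treated embryo at 88.7 FPKM is inside its bounds. Held to the nearest bound, AQP3 in control 2 would be at 61.1 FPKM and MAT2A-inhibited 1 would become the highest embryo.

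AQP11 (chromosome 29, 18475219 to 18488926 in control 1) encodes a distant member of the family found on membranes inside the cell. It was at 21.1, 22.9 and 55.4 FPKM in the control embryos against 22.9, 29.5 and 30.8 FPKM in the treated ones. Control 3 lies apart from the other 5 embryos, which stay between 21.1 and 30.8 FPKM. The value of control 1 lies above its upper bound of 18.8 FPKM, by a factor of 1.13. Here too the locus borders differ: in control 3 the AQP11 locus starts at 18473673, and no separate unannotated row lies in the stretch it takes in. In each of the other 5 libraries such a row begins between 18473669 and 18473693, at 3.23 to 8.12 FPKM, and AQP11 starts at 18475219 or later. How much of the 55.4 FPKM the longer locus accounts for was not tested.

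**Figure D2:**
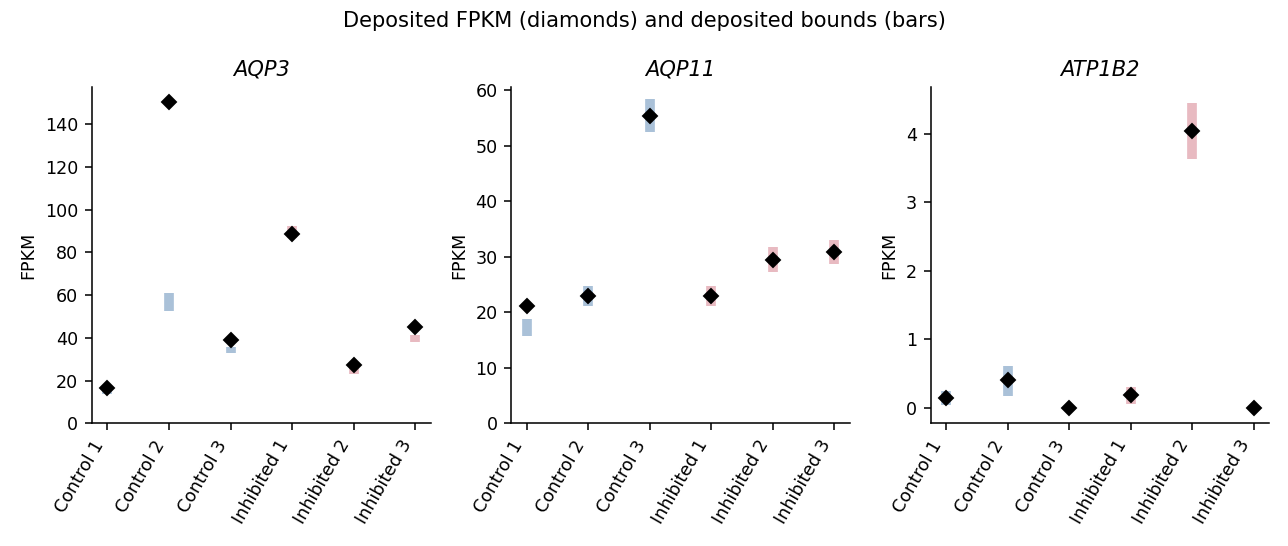
Deposited FPKM (diamonds) and the authors' confidence bounds in FPKM (bars; blue for controls, red for MAT2A-inhibited morulae) for AQP3, AQP11 and ATP1B2 in each library. AQP3 in control 2, at 151 FPKM, lies far above its bar of 52.4 to 61.1, while AQP11 in control 3 and ATP1B2 in MAT2A-inhibited 2 lie inside their bars. AQP11 in control 1, at 21.1 FPKM, lies above its bar of 15.8 to 18.8.

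AQP7 (chromosome 8, 76468679 to 76484933 in control 1), a second channel for glycerol and water and a close neighbour of AQP3 on the chromosome, was low. It was at 1.38, 3.88 and 2.17 FPKM in the control embryos against 1.99, 0.863 and 0.597 FPKM in the treated ones. The 2 lowest embryos were both treated and carry Y-linked transcripts, and the third treated embryo lay inside the control range. Control 2 was the highest for AQP7, as it was for AQP3 by deposited FPKM. The summed level of the 12 cumulus and granulosa genes in that library, 111 FPKM, lay between those of control 1 (129 FPKM) and control 3 (60.6 FPKM). In control 2 SERPINE2 alone was at 92.9 FPKM. Among the libraries, DCN was highest in control 2, at 11.002 FPKM, while COL1A2 was lowest there, at 0.231 FPKM.

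Ordered by mean FPKM over the 6 libraries, ATP1B3 came first, followed by AQP3, AQP11, ATP1B1, AQP7 and ATP1B2. ATP1B3 was above AQP3 in 6 of 6 embryos, by a factor of 3.58 to 34.1. AQP11 was above ATP1B1 in 6 of 6, by a factor of 8.01 to 30.4. AQP3 and AQP11 changed places between embryos, with AQP3 higher in 3 of 6. ATP1B1 and AQP7 did so too, again 3 of 6. AQP7 exceeded ATP1B2 in 5 of 6, the exception being MAT2A-inhibited 2. Of the summed FPKM of the 3 aquaporins, AQP3 made up 40.3% to 84.9%, AQP11 12.9% to 57.5% and AQP7 0.781% to 3.52%. The factor of 3.58 and the shares of 84.9% and 12.9% are those of control 2, where AQP3 lies far above its upper bound. The next highest share of AQP3 was 78.1%, in MAT2A-inhibited 1.

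Of the other sodium pump genes described here, ATP1A4 was listed at 0 in every library and ATP1B4 was at 0.0209 FPKM or less. Among FXYD proteins, small partners that tune the pump, FXYD1 and FXYD6 were the ones tested. FXYD1 was at 5.83, 6.38 and 8.52 FPKM in the control embryos against 5.34, 5.67 and 3.26 FPKM in the treated ones, with all 3 treated values below the controls. FXYD6 was at 1.17 to 3.70 against 2.11 to 4.49 FPKM. FXYD5, not tested, was at 0.180, 0 and 0.213 against 1.101, 1.88 and 0.508 FPKM, with all 3 treated values above the controls. FXYD3 was at 0, 0.289 and 4.45 FPKM in the control embryos against 1.17, 0 and 0.230 FPKM in the treated ones. FXYD7 stayed below 1 FPKM and FXYD2 was listed at 0. Of 7 other aquaporin genes none reached 1 FPKM: AQP1, AQP2, AQP5, AQP8 and AQP9 were listed at 0 in all libraries, and MIP and AQP4 reached 0.464 and 0.165 FPKM.

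**Figure D3:**
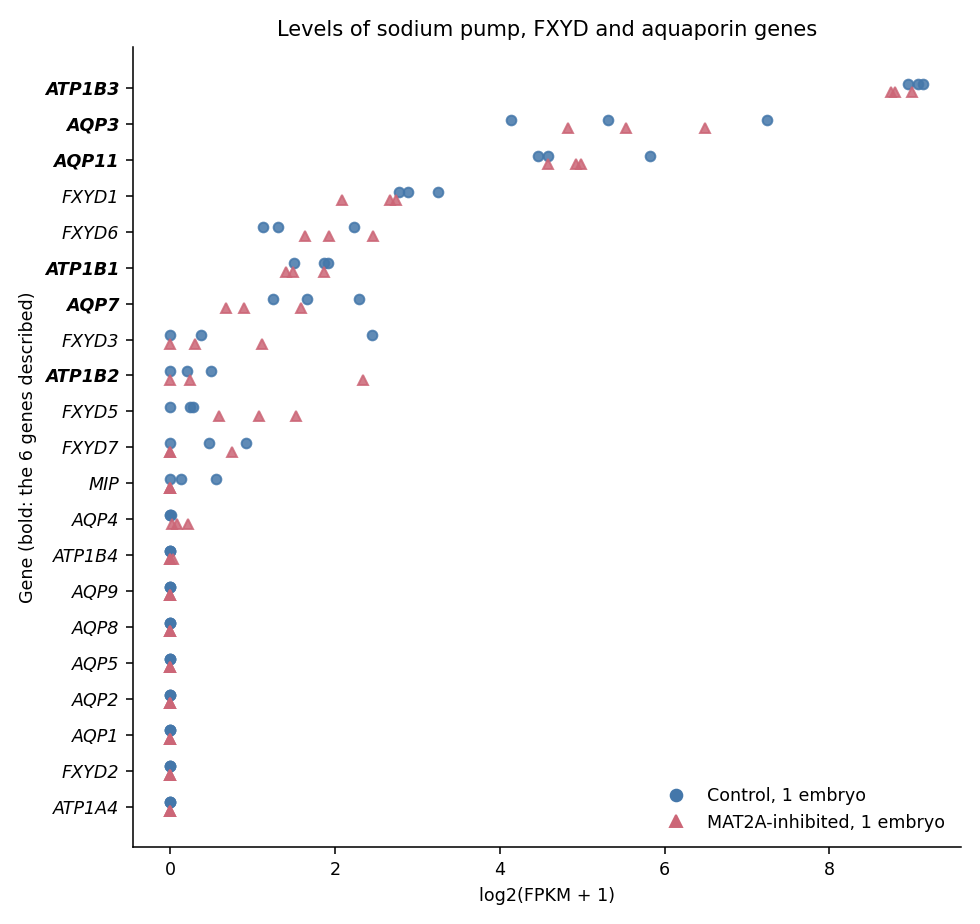
Levels as log2(FPKM + 1) (horizontal axis) of sodium pump, FXYD and aquaporin genes, ordered by mean FPKM, with 1 point per embryo (circles for controls, triangles for MAT2A-inhibited morulae). ATP1B3 stands far to the right of the other pump and FXYD genes drawn, and AQP3, AQP11 and AQP7 are the aquaporins with a point above 1 FPKM.

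The comparison of treated with control embryos asks whether blocking S-adenosylmethionine supply alters these transcripts. None of the 5 tested members passed limma over all genes tested (ATP1B2 was not tested, since the filter asks for 1 FPKM in at least 3 libraries). The background was 0.041%, or 3 of 7319 tested genes. At an unadjusted p below 0.05 there were 0 of 5 members, against 6.64% of tested genes. The groups did not separate for any of the 5, against 13.4% of tested genes. Fold changes are differences of mean log2(FPKM + 1), treated less control, a scale that understates changes of low genes. They lay below 0 for 4 of 5 members and for 45.8% of tested genes. With median-of-ratios scaling they did so for 5 of 5 members, with AQP3 at -0.0091, and for 3697 of 7312 tested genes.

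ATP1B3 averaged 533 ± 34.4 FPKM without and 462 ± 44.5 FPKM with the inhibitor (SD, n = 3 each, exact permutation p = 0.2, two-sided, where 0.1 is the smallest possible). Its log2 fold change came to -0.21 ± 0.16 (SE), with a 95% interval from -0.58 to 0.16 and a limma adjusted p of 0.812. This interval spans 0.668-fold to 1.12-fold, the narrowest of the 5 members.

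AQP7 had the lowest estimate. Its mean was 2.48 ± 1.28 FPKM without and 1.15 ± 0.741 FPKM with the inhibitor (SD, n = 3, exact permutation p = 0.2). Its log2 fold change came to -0.68 ± 0.40 (SE), with an interval from -1.62 to 0.26 and a limma adjusted p of 0.782. Without MAT2A-inhibited 2 and 3, the libraries with Y-linked transcripts, 1 treated embryo is left and the AQP7 value was -0.15. Leaving out 1 library gave values from -0.95 (without MAT2A-inhibited 1) to -0.41 (without control 2), and a pseudocount of 0.1 FPKM in place of 1 gave -1.08.

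ATP1B1 averaged 2.41 ± 0.509 against 2.03 ± 0.537 FPKM (SD, n = 3, exact permutation p = 0.3). Its log2 fold change was -0.17, with an interval from -0.89 to 0.54. AQP11 averaged 33.2 ± 19.3 against 27.7 ± 4.21 FPKM (SD, n = 3, exact permutation p = 1). Its log2 fold change was -0.12, with an interval from -1.02 to 0.78, and it became 0.31 without control 3. AQP3 averaged 68.7 ± 71.8 against 53.7 ± 31.6 FPKM (SD, n = 3, exact permutation p = 0.9). Its log2 fold change was 0.049, although its mean FPKM was lower after treatment, and the interval from -1.74 to 1.84 is the widest of the 5. Without control 2 it was 0.89, without control 1 it was -0.67, and with every gene held to its deposited bounds it was 0.47. The limma adjusted p was 0.906 for ATP1B1, 0.947 for AQP11 and 0.991 for AQP3. The intervals of AQP3, AQP7 and AQP11 reach past -1 on the log2 scale and so do not exclude a fall by 1 on that scale.

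**Figure D4:**
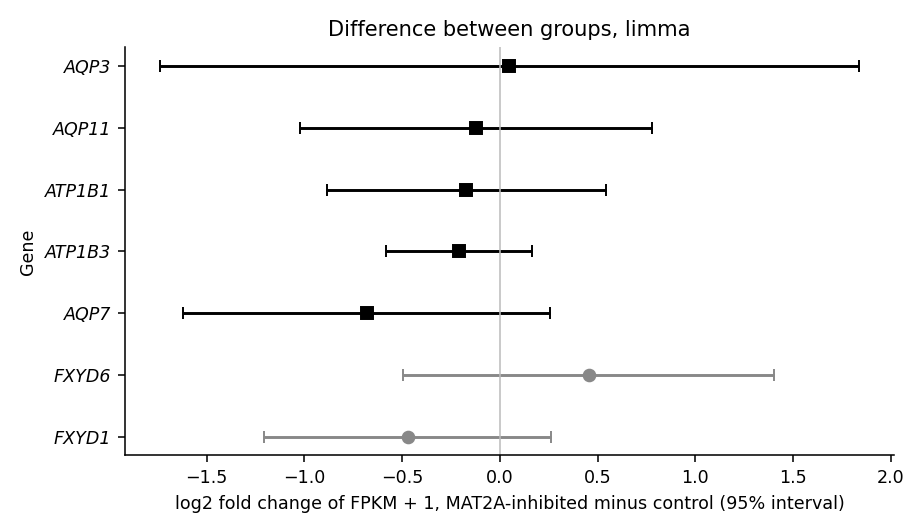
Log2 fold change of FPKM + 1, MAT2A-inhibited minus control (horizontal axis), with 95% limma intervals for the 5 tested members (black squares) and 2 tested relatives (grey circles). Every interval crosses 0, from the narrow one of ATP1B3 (-0.58 to 0.16) to the wide one of AQP3 (-1.74 to 1.84).

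The tested FXYD genes did not pass either. FXYD1 had a log2 fold change of -0.47 and FXYD6 of 0.45, with limma adjusted p of 0.80 and 0.830. The groups did not overlap for FXYD1, as for 13.4% of tested genes.

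Other steps of cavity formation were read from further lists, and no gene in them passed limma over all genes tested. Their counts stand beside a median of 0.045 and 54.2% above 0 over all 7319 tested genes, of which 13.4% have groups without overlap. With median-of-ratios scaling 3615 of 7312 tested genes were above 0. Genes named below include the 2 with the smallest p of each list, so separate groups are likelier among them. The tight junction list, for the seal that holds the fluid, also takes in the cell adhesion genes CDH1, CTNNA1 and CTNNB1. These were at -1.16, 0.46 and -0.062. Of the 14 tested genes of the list 11 were above 0, with a median of 0.40 and 1 gene below an unadjusted p of 0.05. CLDN3, a claudin, was at 0.305, 0.866 and 1.599 FPKM in the control embryos against 3.06, 2.06 and 3.21 FPKM in the treated ones. F11R, a junction adhesion molecule, was at 105, 68.8 and 113 against 125, 136 and 139 FPKM. Neither gene's groups overlap, as for 3 of the 14 tested genes, and their limma adjusted p was 0.725 and 0.750. CLDN6, the most abundant claudin of the list, was at 258 to 470 FPKM in the control embryos against 376 to 477 FPKM in the treated ones. The adhesion gene CDH1 was listed at 0 in MAT2A-inhibited 1 and was at 49.1 to 323 FPKM in the other 5. Its log2 fold change was -1.16, and 1.42 without MAT2A-inhibited 1.

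In the list of transporters of sodium, chloride and bicarbonate, 6 of 7 tested genes were below 0, with a median of -0.40. The 6 include SLC9A3R1, no transporter itself, at -0.029. Below an unadjusted p of 0.05 there was 1 gene. SLC4A7, which brings sodium and bicarbonate into cells, was at 11.5, 12.2 and 7.598 FPKM in the control embryos against 6.10, 5.32 and 6.45 FPKM in the treated ones. SLC4A2, an anion exchanger, was at 2.05, 1.44 and 1.95 against 2.61, 13.6 and 3.41 FPKM. The treated values lie wholly below the controls for SLC4A7 and wholly above them for SLC4A2, with limma adjusted p of 0.746 and 0.750. Groups without overlap were found for 2 of the 7 tested genes. SLC9A3R1, a scaffold of sodium exchangers, lay between 15.5 and 71.9 FPKM over all libraries, and CLCN3, a chloride transporter, between 1.59 and 17.2 FPKM.

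Of the other P-type pumps, ATPases that move cations, 3 of 5 tested genes were above 0 (median 0.20, 0 below an unadjusted p of 0.05). The groups did not overlap for 1 of the 5. ATP2A2, which loads calcium into the endoplasmic reticulum, was at 25.3, 29.3 and 29.9 FPKM in the control embryos against 40.1, 35.3 and 34.0 FPKM in the treated ones, without overlap (limma adjusted p = 0.782). ATP2C1, the pump of the Golgi, was at 15.8 to 25.4 against 17.5 to 36.7 FPKM.

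The apical domain list had 5 of 9 tested genes above 0 (median 0.26), and the list of kinases and other regulators of pumps and channels 4 of 9 (median -0.019), with 0 genes below an unadjusted p of 0.05 in either. With every gene held to its bounds these counts were 6 of 9 and 5 of 9. The polarity gene PARD6B was at 11.4, 15.8 and 15.7 FPKM in the control embryos against 14.03, 10.8 and 9.84 FPKM in the treated ones. LLGL2, also of cell polarity, was at 1.25 to 4.18 against 3.53 to 4.19 FPKM. CDC42 was at 252 to 339 against 221 to 340 FPKM. PRKCD, a protein kinase C, was at 3.58, 2.28 and 3.84 against 5.58, 6.13 and 4.61 FPKM. Its groups did not overlap (limma adjusted p = 0.752), as for 1 of the 9 tested regulators. MAPK14, a stress kinase, was at 14.2 to 21.6 against 17.4 to 28.0 FPKM. RHOA and HSPA8, the most abundant of that list, were at 305 to 460 FPKM and 1444 to 2354 FPKM over all libraries.

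**Figure D5:**
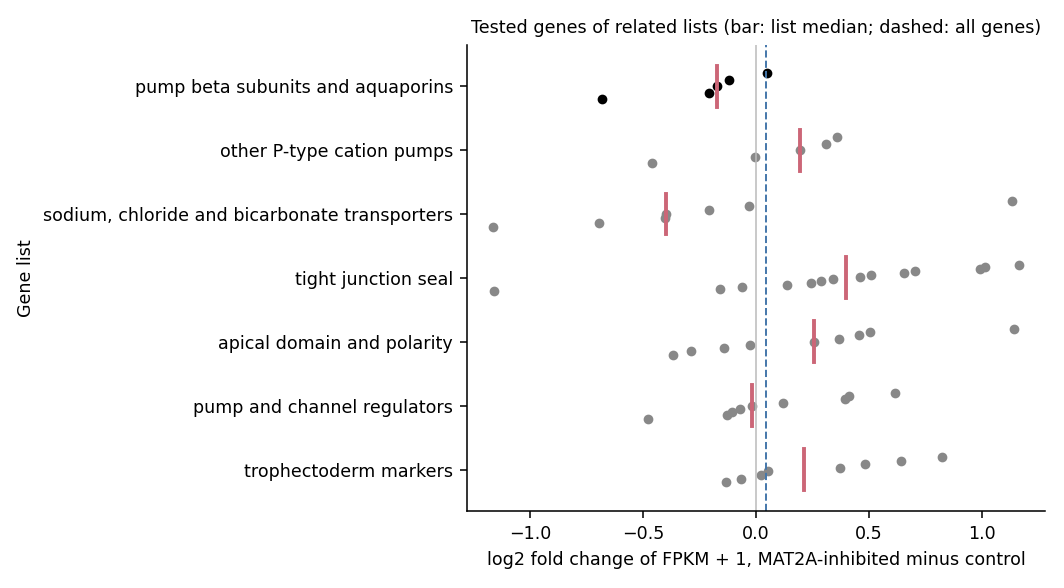
Log2 fold change of FPKM + 1, MAT2A-inhibited minus control (horizontal axis), for each tested gene of 7 lists (points), with list medians (red bars) and the median of all tested genes (dashed line, 0.045). The members' median lies at -0.17, that of the transporter list at -0.40 and that of the tight junction list at 0.40, and no single point passed the test.

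Trophectoderm genes, which mark the outer cells, ranged widely inside each group. KRT8 was at 81.4, 4.49 and 400.5 FPKM in the control embryos against 38.7, 109 and 230 FPKM in the treated ones, and KRT18 at 22.6, 8.67 and 363 against 28.5, 90.4 and 117 FPKM. GATA2 was at 1.74 to 12.1 against 5.76 to 11.4 FPKM and KRT19 at 2.65 to 6.37 against 3.06 to 21.3 FPKM. The list of 11 summed to 276, 171 and 1008 FPKM in controls against 233, 394 and 536 FPKM after treatment, with EOMES at 0. Of its 8 tested genes 6 were above 0, and 4 with median-of-ratios scaling. Control 3, with the highest KRT8 and KRT18 and with EZR, an apical linker of actin, at 314 FPKM against 34.4 to 133 in the others, is also the embryo with the highest AQP11. Control 2, with the lowest KRT8 and KRT18, has the highest AQP3 and AQP7 by deposited FPKM. Held to its bounds, AQP3 in control 2 would be at 61.1 FPKM, below the 88.7 FPKM of MAT2A-inhibited 1. The AQP11 value of control 3 comes from the longer locus. Whether these differences go together was not tested.

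Among inner cell mass genes 3 of 6 tested were above 0 (median -0.016), 2 of 6 with median-of-ratios scaling, with 1 below an unadjusted p of 0.05. NANOG was at 4.58, 20.3 and 2.54 FPKM in the control embryos against 1.16, 1.71 and 1.88 FPKM in the treated ones, and SOX2 at 41.5, 27.6 and 32.1 against 50.8, 50.3 and 45.2 FPKM. Neither pair of groups overlaps, as for 2 of the 6 tested genes, and the limma adjusted p was 0.746 for both pluripotency factors. Of the tested cumulus and granulosa genes 1 of 3 was above 0, of the sperm genes 3 of 3 and of the blood genes 0 of 2.

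Profiles most like those of the members were taken as the 2 tested genes with the highest Pearson r of log2(FPKM + 1) over 6 libraries. These are descriptions without a test, the libraries and their depths being shared by all genes. For ATP1B3 they were SGK3 (r = 0.997), at 5.61, 4.69, 3.96, 2.49, 4.25 and 2.80 FPKM in controls 1 to 3 and MAT2A-inhibited morulae 1 to 3, and GPN1 (r = 0.989). For ATP1B1 they were FNDC3A (r = 0.994) and FAM32A (r = 0.984). AQP3 was followed by IFRD2 (r = 0.995) and BET1 (r = 0.972), AQP7 by KIF18A (r = 0.989) and PNN (r = 0.982), and AQP11 by PLA2G4A (r = 0.995) and HMGN1 (r = 0.983). Between 4 and 20 tested genes per member exceeded 0.95. Among the members themselves the highest r was 0.68, for AQP3 and AQP7, and that of ATP1B1 and ATP1B3 was 0.45. Each r of AQP3 uses the 151 FPKM of control 2, above its upper bound of 61.1 FPKM. Each r of AQP11 uses the 55.4 FPKM of control 3, from the longer locus. How far these r rest on those values was not tested.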

How the data were processed

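Each of 6 polyA libraries came from 1 morula, made with a low-input full-length kit. The authors deposited 1 table per library with FPKM and confidence bounds in FPKM. TopHat2 2.0.14, Cufflinks 2.2.1 and the build bosTau8 are named, per the submitters' processing notes. Settings and any scaling between libraries: not given in the sources used here. Unannotated rows and locus borders differ between libraries. Rows of 1 symbol were summed, and of 13295 symbols 13185 were kept; 38 left out were in merged loci and 72 had a status other than OK. Depth was recovered from the whole-fragment steps in the bounds of short unannotated loci, 100 to 300 bases long (99.6% to 99.8% whole, tolerance 0.05). Counts per gene were not recovered, and no counting interval is given.

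Genes reaching 1 FPKM in 3 or more libraries entered limma 3.58.1 under R 4.3.3. Input was log2(FPKM + 1), the variance prior followed the mean, tests were two-sided and the Benjamini-Hochberg threshold was 0.05. The test was tried on simulated data. Members and lists were chosen with earlier results of these data known. Named are the members, pump and aquaporin relatives (some are not reported here), the 2 smallest p and 2 highest means per list, and the 2 most similar profiles per member. Other levels were named after their values were seen. Positions are 1-based. Alternatives were other scalings, pseudocounts and filters, no trend, a replicate block, the largest row per symbol, leaving out libraries and, added after seeing the data, values held to their bounds.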

Additional observations from a re-analysis of the deposited data

How the results depend on the processing

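No member passed under any of the 17 alternatives, and ATP1B1, ATP1B3 and AQP7 stayed below 0 in each that tested them. The other filters, no trend and the replicate block leave a fold change as it is, so its direction could not change there. Each member has 1 row per library, so taking the largest row per symbol could not change its fold change either. Leaving out 1 library moved AQP3 between -0.67 and 0.89 and AQP11 between -0.36 and 0.31, and with median-of-ratios scaling AQP3 was at -0.0091. With no filter ATP1B2 was tested as well, at 0.63 (limma adjusted p = 0.844). That value includes the 4.04 FPKM of MAT2A-inhibited 2, the library with the longer deposited locus. Every other library was at 0.411 FPKM or less. The count of genes called, 3, was 1 with no filter, 1 with a mean of at least 5 FPKM, 0 without genes listed at 0 and 0 without the 2 libraries with Y-linked transcripts. It ran from 0 (without MAT2A-inhibited 1, 2 or 3) to 8 (without control 3) on leaving out 1 library. The filter asks for 3 libraries, so fewer libraries also change which genes are tested, and the cause was not tested otherwise.

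With the replicate number as a block the count was 1. Deviations of same-numbered embryos from their group means correlated at 0.046, 0.10 and 0.19, against -0.21 to 0.10 for embryos of unlike number. The numbers were not taken as pairs, and whether they mark pairs was not tested. The replicate block changed no member's call.

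Of 562 recomputed values of 34 other named genes, 538 kept direction and side of the threshold, 24 changed direction and 0 newly passed. The 538 include the values under the other filters, no trend and the replicate block, where direction could not change. Without the Y-linked libraries ATP2C1 was at -0.25, SLC9A3R1 0.036, CLCN3 0.11, KRT19 -0.39, KRT8 -0.51, KRT18 -0.57 and HBA 0.13. With values held to their bounds, chosen after seeing the data, CDC42 was at 0.092. Leaving out 1 library gave -0.095 to 0.42 for ATP2C1, -2.75 to 1.42 for CDH1, -0.83 to 0.58 for CLCN3, -1.21 to 0.37 for EZR, -0.35 to 0.78 for GATA2, -0.49 to 0.035 for HBA, -0.25 to 0.10 for HSPA8, -0.44 to 2.17 for KRT18, -0.31 to 0.92 for KRT19, -0.86 to 2.24 for KRT8, -0.22 to 0.073 for RHOA and -0.69 to 0.39 for SLC9A3R1. A gene listed at 0, as ATP1B2 in 2 libraries or CDH1 in MAT2A-inhibited 1, cannot be told from a failed estimate.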
